A study of Mus musculus with 22 samples.

Results

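Dux, Zfp352, Tmem92, Gm12794, Trim43a, Trim43b, Trim43c, Trim75, Tcstv1 and Tcstv3 are genes known as markers of the 2-cell (2C) embryo and of 2C-like cells, taken here as the single markers outside the Zscan4, Usp17l and Eif1a-like families. They were found by symbol in the deposited FPKM tables (fragments scaled to transcript length and library size). Of the 10 symbols, 8 were among the 24819 genes of each table. Tcstv1 and Tcstv3 were not matched and are not analysed here. All 8 had a mean of at least 0.1 FPKM in each fit, the filter on low values. In set 3 Dux and Zfp352 met it through 1 siRpl14 library alone.

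The RNA came from E14 cells, a mouse embryonic stem cell line kept on gelatin with leukemia inhibitory factor. The cells were harvested 3 days after transfection with pairs of small interfering RNAs (siRNAs). There were 22 libraries of 6 kinds. Control cells received siNT with siNT and are called siNT; single knockdowns received siRpl14, siRpl11 or siDux together with siNT; combined knockdowns received siRpl14 with siRpl11 or siRpl14 with siDux. The labels do not spell out NT. The products of Rpl14 and Rpl11 are parts of the large ribosomal subunit, and Rpl11 is also a known partner of Mdm2, which marks p53 for breakdown.

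Set 1 held 8 libraries, with siNT, siRpl11, siRpl14 and siRpl14+siRpl11 in 2 each. Set 2 held 4 libraries of the same table, 1 each of siNT, siRpl14, siDux and siRpl14+siDux. Set 3 was the other table of 10 libraries, with siNT, siDux, siRpl14 and siRpl14+siDux in 2 each, and a single library for siRpl11 and for siRpl14+siRpl11. Sets 1 and 2 are told apart only by the style of their titles. Values are compared within a table only, and the labels do not tie replicates to separate cultures, so the spread behind each p-value is that of these samples and may be technical.

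Dux is a transcription factor with a pair of homeodomains that switches on genes of the 2-cell embryo, including genes driven by MERVL retroviral elements. A small share of embryonic stem cells in culture enters this 2C-like state at any time. Zfp352 encodes a zinc finger protein and Trim75 and the Trim43 genes encode proteins of the tripartite motif family. Tmem92 encodes a transmembrane protein, and Gm12794 is listed by RefSeq as Pramel19, a member of the Prame-like family. Dux lies in an array of near-identical copies and the Trim43 genes are close paralogs, so how the authors' counting divided reads among copies is uncertain for these 4 genes. In bulk RNA, more cells in the 2C-like state and more RNA per such cell cannot be told apart.

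Per the RefSeq promoter table (build GRCm38.p6, while the FPKM files use mm9, so no positions are given), 4 of the 10 genes had an upstream window: Zfp352, Gm12794, Trim75 and Trim43a. The 250 bases before the start are shown, 5′ to 3′ on the gene's strand (plus for Zfp352, minus for Trim75), for Zfp352, whose window is unlike all others in its repeats, and for Trim75, the marker with the highest level in set 3. Capitals mark TAATCC on either strand, the core known from sites of Otx-type homeodomain proteins.

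Zfp352: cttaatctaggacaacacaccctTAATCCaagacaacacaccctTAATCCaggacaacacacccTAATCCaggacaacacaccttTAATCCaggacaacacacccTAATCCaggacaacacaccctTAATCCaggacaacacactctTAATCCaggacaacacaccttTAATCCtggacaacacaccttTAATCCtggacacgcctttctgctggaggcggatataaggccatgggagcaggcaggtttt

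Trim75: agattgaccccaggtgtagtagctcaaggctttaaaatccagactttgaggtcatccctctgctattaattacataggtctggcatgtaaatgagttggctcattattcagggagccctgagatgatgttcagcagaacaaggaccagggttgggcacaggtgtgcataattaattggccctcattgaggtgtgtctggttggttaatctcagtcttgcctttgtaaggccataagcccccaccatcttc

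The Zfp352 window held TAATCC 9 times, in a short tandem repeat that fills most of it. Of 32851 upstream windows of the same length, 6.25% held TAATCC at least once and 1 window, that of Zfp352, held it 5 times or more. The Trim75 window held no TAATCC and held TAATTA, another homeodomain core, 2 times, against 4.84% of windows with at least 1. The half-site of p53 was in none of the 4 and in 7.13% of all. A longer motif for paired homeodomains, such as those of Dux, was also searched. It was in none of the 4 windows and in 0.0304% of all. Both strands were searched, TAATTA reads the same on both, and the motifs were chosen with the windows in view. A match is a description of letters and not a bound site.

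The labels were checked on the siRNA targets and on markers. Rpl14 stood at 15.6 to 60.2% of the siNT mean in the 11 libraries given siRpl14, with the highest value in siRpl14 replicate 1 of set 1. Rpl11 stood at 13.2 to 34.9% in the 6 libraries given siRpl11. The log2 fold change of Rpl14 with siRpl14 alone in set 1 was -1.31 ± 0.42 (SE) and did not pass (limma, adjusted p = 0.0501). It was -1.95 ± 0.17 in set 3 (limma, adjusted p = 0.00573). That of Rpl11 with siRpl11 alone in set 1 was -2.10 ± 0.47 (limma, adjusted p = 0.0115). The 8 markers of embryonic stem cells had summed levels of 4369 to 7840 FPKM in the first table, and all were above 0 in at least 1 library of each of its groups. The 6 markers of fibroblast feeders summed to at most 15.5 FPKM. Absolute depth is unknown. In set 3, 50.5 to 56.2% of genes per library were listed at 0, against 30.1 to 32.1% in sets 1 and 2, so a 0 there is given only as listed.

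Depletion of Rpl14 raised 5 of the 8 markers in set 1, namely Dux, Zfp352, Tmem92, Gm12794 and Trim75, and the 3 Trim43 genes did not pass. Across all genes 15.8% were called higher and 12.5% lower in this comparison (limma, adjusted p under 0.05). The ratios of mean FPKM lay between 3.94 for Gm12794 and 6.81 for Zfp352. The median log2 fold change was 1.03 over the 8 markers and 0.02 over all genes tested. In siNT of set 1 the levels, which are per length, ran from 3.18 FPKM for Tmem92 and 2.74 for Gm12794 down to 0.443 for Trim75, 0.324 for Zfp352 and 0.285 for Dux.

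**Figure D1:**
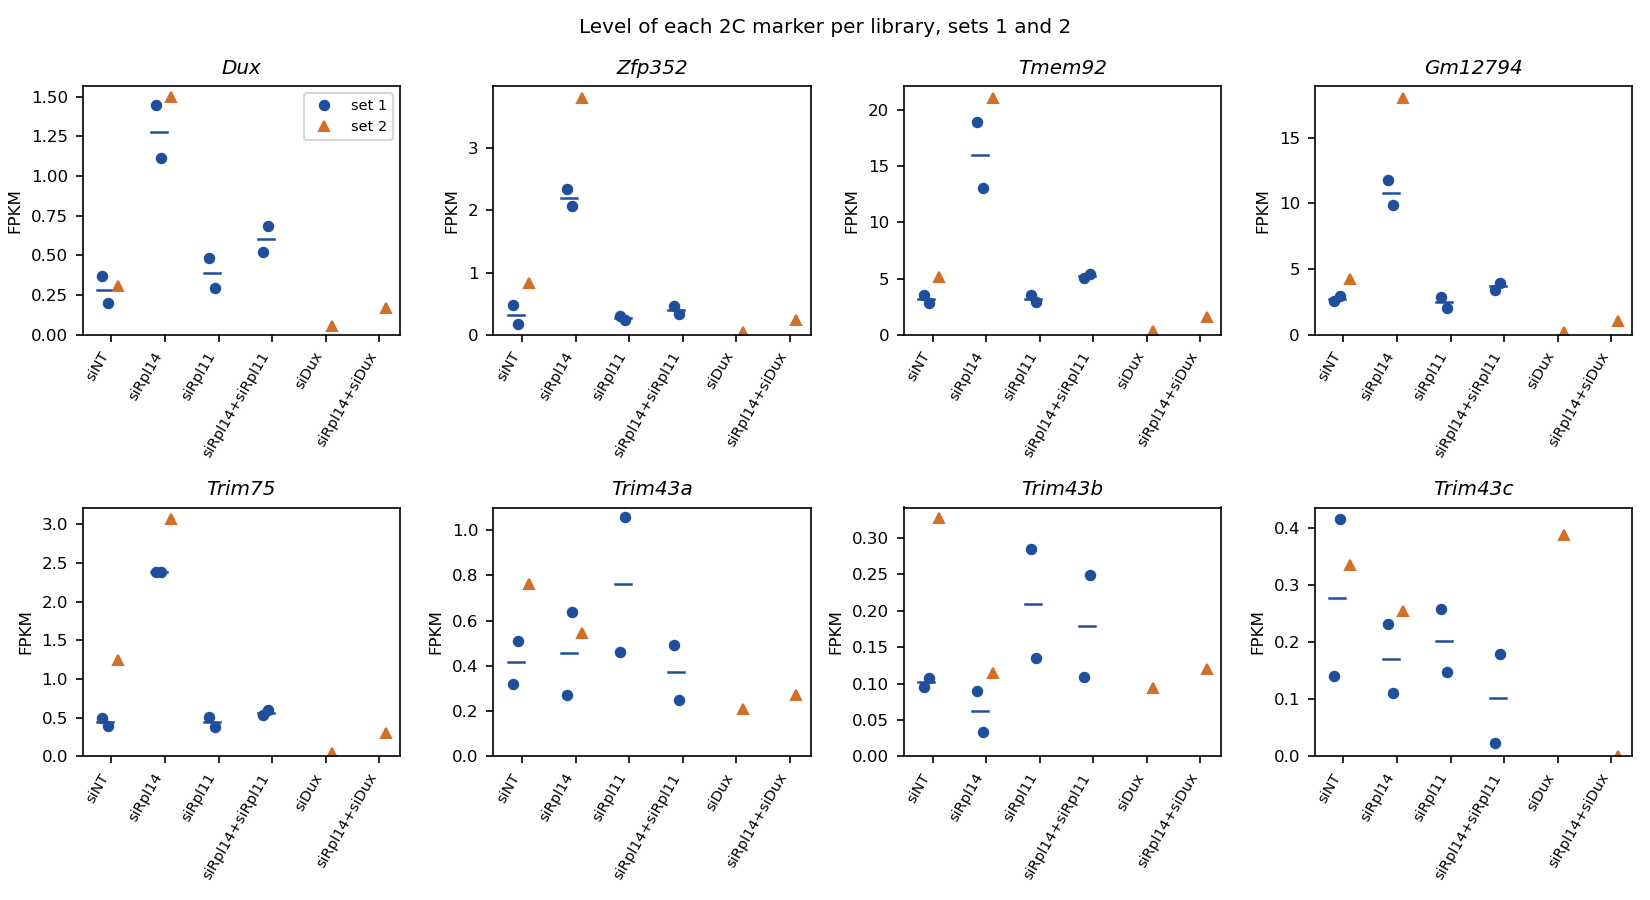
FPKM (vertical axes, linear and starting at 0) of the 8 markers in each library of set 1 (circles, with a bar at the mean of 2) and set 2 (triangles, 1 library each) by siRNA. Dux, Zfp352, Tmem92, Gm12794 and Trim75 were highest in the siRpl14 libraries and lowest in the siDux library, while the Trim43 genes stayed at 1.06 FPKM or less with groups that mostly overlap.

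Dux, the factor itself, was at 0.368 and 0.202 FPKM in the siNT libraries of set 1 and at 1.45 and 1.11 FPKM with siRpl14. Both siRpl14 libraries lay above both controls, and the log2 fold change was 0.83 ± 0.13 (SE; limma, adjusted p = 0.00537). All fold changes are of FPKM + 1, which understates changes of low genes such as this one. In the single libraries of set 2 Dux was at 0.306 FPKM with siNT and 1.495 with siRpl14.

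Zfp352 was at 0.481 and 0.167 FPKM in siNT and at 2.34 and 2.07 FPKM with siRpl14 in set 1, again without overlap. The change was 1.28 ± 0.14 (limma, adjusted p = 0.0016). In set 2 it went from 0.826 to 3.81 FPKM.

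Tmem92, the most abundant of the markers, was at 3.52 and 2.83 FPKM in siNT and at 18.9 and 13.1 FPKM with siRpl14 in set 1. Its fitted change was 2.01 ± 0.19 (limma, adjusted p = 0.001). Gm12794 was at 2.55 and 2.93 FPKM in siNT and at 11.7 and 9.84 with siRpl14, a change of 1.65 ± 0.17 (limma, adjusted p = 0.0013). The siRpl14 libraries stood apart from the controls for both genes, with replicate 1 the higher of the 2. In set 2 Tmem92 was at 5.13 and 21.1 FPKM and Gm12794 at 4.25 and 18.0 FPKM in siNT and siRpl14.

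Trim75 was at 0.491 and 0.394 FPKM in siNT and at 2.38 FPKM in each siRpl14 library of set 1. It changed by 1.23 ± 0.11 (limma, adjusted p = 0.000905). In set 2 its siNT level was higher, at 1.24 FPKM, and its siRpl14 level was 3.07, a ratio of 2.47 that was the lowest of the 5 genes in that set. All 5 calls of the siRpl14 comparison held under each of the other settings tried and without any 1 library of set 1, with adjusted p up to 0.0414 for Dux. Replicate 1 of siRpl14 had the weaker knockdown of Rpl14 (60.2% of siNT against 27.1%), and yet was the higher of the pair for Dux, Zfp352, Tmem92 and Gm12794.

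The Trim43 paralogs, which are known to be expressed in early embryos, stayed low. Trim43a was at 0.321 and 0.511 FPKM in siNT and 0.271 and 0.638 with siRpl14 in set 1, so the groups overlap (log2 fold change 0.03 ± 0.19, limma, adjusted p = 0.915). Trim43b was at 0.0955 and 0.107 FPKM in siNT and 0.0901 and 0.0334 with siRpl14. Trim43c was at 0.14 and 0.415 in siNT and 0.232 and 0.11 with siRpl14. Neither passed (limma, adjusted p = 0.686 and 0.496). At these levels, near the 10th percentile of values above 0 for Trim43b (0.0538 to 0.0821 FPKM per library), a change would be hard to detect.

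The other genes of the 2C-like program moved in the same direction in this comparison. Of 32 genes of an accompanying list, which includes the Zscan4 and Usp17l families, 28 were in the table and 23 tested, and 23 passed as higher, with a median log2 fold change of 1.59. Ddit4l (2.42 ± 0.32) and Zfp750 (2.38 ± 0.29) changed most, and Sp110 (0.84 ± 0.10) and B020004J07Rik (0.39 ± 0.11) least. The list was written with earlier results of these data known. The 4 trophectoderm markers (Cdx2, Elf5, Gata3 and Krt8) also summed higher, at 8.24 and 17.0 FPKM with siRpl14 against 5.85 and 6.03 in siNT. The 8 stem cell markers summed lower, at 4914 to 5386 FPKM against 7028 to 7840. Most of that sum was Dppa5a, at 5243 and 4351 FPKM in siNT and 3039 and 2668 with siRpl14. Of the 8 stem cell markers 2 passed as lower (Dppa5a and Klf4) and 1 as higher (Sox2). The part of either group of markers in the changes of the 2C markers was not tested.

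Depletion of Rpl11 alone left the 5 markers that rose with siRpl14 near their control levels. None of the 8 passed (limma), and none had an unadjusted p under 0.05, while 39% of all genes were called in this comparison, 12.9% as higher and 26.1% as lower. Dux was at 0.482 and 0.296 FPKM with siRpl11 against 0.368 and 0.202 in siNT, with overlapping groups (0.11 ± 0.13, limma, adjusted p = 0.52). Zfp352 was at 0.3 and 0.242 FPKM, between its control values. Tmem92 at 3.53 and 2.91 FPKM, Gm12794 at 2.89 and 2.07 and Trim75 at 0.507 and 0.379 also overlapped with siNT. The fitted changes of these 5 genes lay between -0.11 ± 0.17 for Gm12794 and that of Dux, against a median of -0.11 over all genes tested. Trim43a reached its highest value of the table, 1.06 FPKM, in siRpl11 replicate 2, but was at 0.462 in replicate 1. Trim43b was at 0.284 and 0.134 FPKM with siRpl11, above its siNT values of 0.0955 and 0.107 (0.13 ± 0.09, limma, adjusted p = 0.289). Trim43c was at 0.257 and 0.148 FPKM, inside its siNT range. At such low levels not passing does not show that a gene was unchanged. Of the 23 tested genes of the accompanying list 2 were higher and 6 lower with siRpl11. The 2 higher ones were Ddit4l (1.10 ± 0.32) and Zfp750 (1.53 ± 0.29), which had also changed most with siRpl14.

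**Figure D2:**
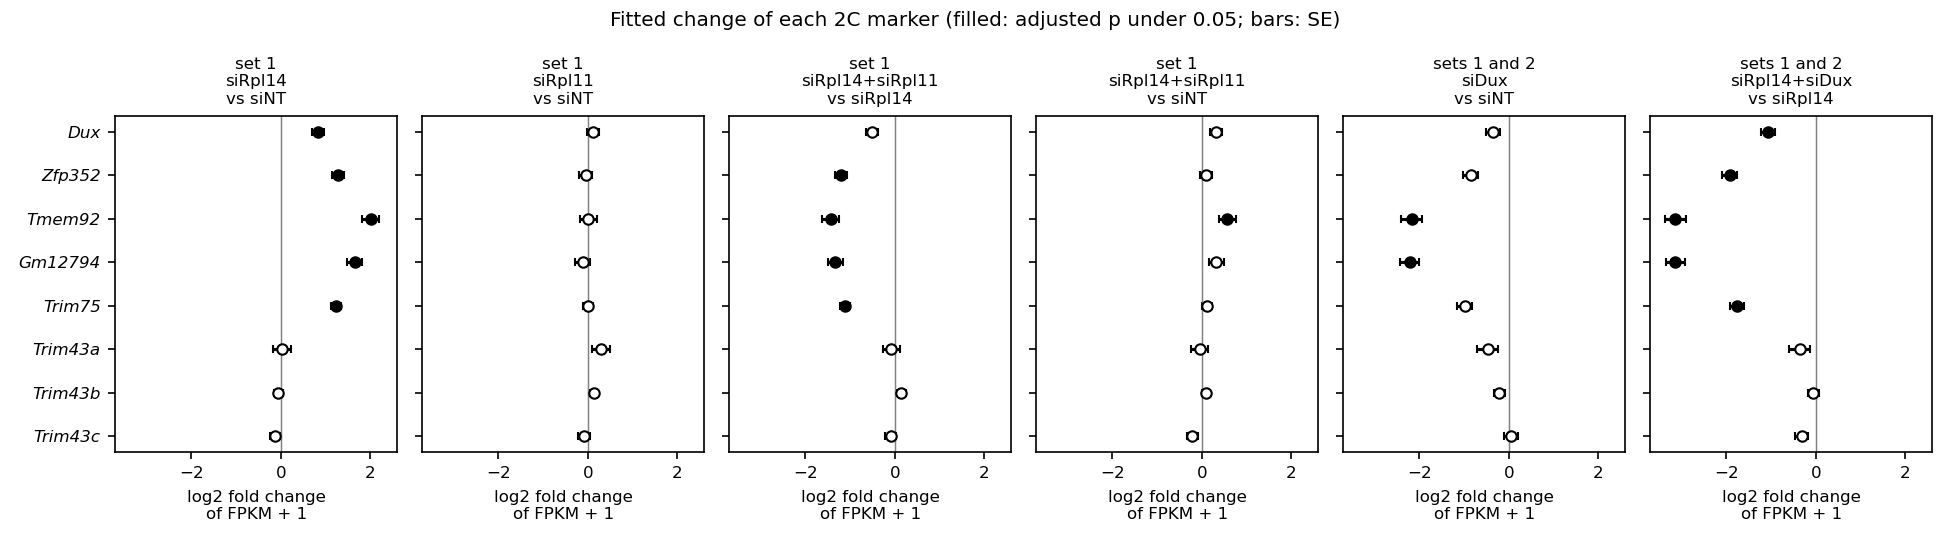
Fitted log2 fold change of FPKM + 1 (horizontal axes) with its SE for the 8 markers in 6 comparisons of sets 1 and 2; filled points passed at an adjusted p under 0.05 (limma). The first 5 genes moved right with siRpl14 and left when siRpl11 or siDux was added to it, with Dux open for siRpl11, and the Trim43 genes are open in all 6.

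Adding siRpl11 to siRpl14 lowered 4 of the 8 markers relative to siRpl14 alone, and 6.55% of all genes were called in this comparison, 6.05% as lower. The siRpl14 libraries are shared with the comparison above. Zfp352 was at 0.465 and 0.337 FPKM in siRpl14+siRpl11, a change of -1.19 ± 0.14 (limma, adjusted p = 0.00448). Tmem92 was at 5.04 and 5.37 FPKM (-1.43 ± 0.19, limma, adjusted p = 0.00762) and Gm12794 at 3.43 and 3.95 (-1.33 ± 0.17, limma, adjusted p = 0.00647). Trim75 was at 0.539 and 0.593 FPKM (-1.11 ± 0.11, limma, adjusted p = 0.00286). For each of these 4 genes both combined libraries lay below both siRpl14 libraries. The fall of Tmem92 was no longer called without siRpl14+siRpl11 replicate 1 (adjusted p = 0.0506).

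Dux was at 0.524 and 0.687 FPKM in siRpl14+siRpl11, below both siRpl14 libraries and above all 4 siNT and siRpl11 libraries of set 1. Its difference from siRpl14 was -0.50 ± 0.13 and did not pass (limma, adjusted p = 0.0595). Its ratio of means to siRpl14, 0.473, was the highest of the 5 genes, and that of Zfp352, 0.182, the lowest. The 4 trophectoderm markers summed to 2.73 and 4.12 FPKM in the combined libraries, below siRpl14 as well, and their part was not tested. Of the 3 that were tested, Krt8 alone passed as lower (-1.56 ± 0.26, limma, adjusted p = 0.0158). Of the 23 genes of the accompanying list 20 were lower than in siRpl14 alone, with a median of -1.59.

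Against siNT, which the single knockdowns share, the combined knockdown left 1 of the 8 markers higher. This was Tmem92 (0.58 ± 0.19, limma, adjusted p = 0.044), where 36.2% of all genes were called and 13.3% were higher. That call was lost without either siNT, siRpl11 or siRpl14+siRpl11 library and with no filter (highest adjusted p = 0.193). Ratios of mean FPKM to siNT ran from 1.24 for Zfp352 to 2.12 for Dux (0.32 ± 0.13, limma, adjusted p = 0.0848). The 5 genes therefore stood in 1 order of conditions for the top 2 places, with siRpl14 first and siRpl14+siRpl11 second, and their siNT and siRpl11 values overlapped. For Zfp352 the second place also overlapped with siNT.

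The change with siRpl14 was smaller when siRpl11 was present for 4 of the 8 markers, by a direct test of that difference (interaction), where 3.99% of all genes were called, 1.7% as positive and 2.29% as negative. It was -1.15 ± 0.19 for Zfp352, -1.45 ± 0.27 for Tmem92, -1.22 ± 0.23 for Gm12794 and -1.11 ± 0.15 for Trim75 (limma, adjusted p = 0.028, 0.0332, 0.0381 and 0.0194). Dux had -0.62 ± 0.18 and did not pass (limma, adjusted p = 0.0881). All 4 calls were lost when either siNT or either siRpl11 library, or siRpl14+siRpl11 replicate 2, was left out.

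With siDux alone 2 of the 8 markers, Tmem92 and Gm12794, fell below siNT, and both calls rest on the single siNT library of set 2. Dux itself was at 0.0546 FPKM in the siDux library against 0.306 in siNT, which is 17.9%, and at 0.168 in siRpl14+siDux against 1.495 in siRpl14, which is 11.3%. The value in the siDux library is near the low end of its values above 0 (10th percentile 0.0633 FPKM). Since siDux and siRpl14+siDux have 1 library each, they were tested in a fit of all 12 libraries of the table with set as a term, which assumes that a lone library varies like the others. In that fit the change of Dux itself with siDux alone was -0.34 ± 0.16 and did not pass.

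With siDux alone, Tmem92 was at 0.313 FPKM against 5.13 in siNT and Gm12794 at 0.186 against 4.25, in a comparison where 0.166% of all genes were called and 0.152% were lower. Their changes were -2.17 ± 0.23 and -2.21 ± 0.21 (limma, adjusted p = 0.00376 and 0.00196). Both calls were lost without the siNT library of set 2 (adjusted p = 0.178 and 0.0512). Zfp352 was at 0.0413 FPKM against 0.826 and Trim75 at 0.0381 against 1.24, and neither passed (limma, adjusted p = 0.269 and 0.0845). With a pseudocount of 0.1 FPKM the Trim75 change was -2.96 and passed (adjusted p = 0.0149). The siNT level exceeded the siDux level 5.6-fold for Dux and 16.4-fold to 32.6-fold for the other 4 genes, with no replicate behind these ratios. The siDux values of Dux, Zfp352 and Trim75 lay under 0.0633 FPKM, the 10th percentile of values above 0 in that library. Their ratios are therefore uncertain in size. Of the 23 genes of the accompanying list 15 were lower with siDux.

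With siDux added to siRpl14, all 5 of the markers that had risen were lower than in siRpl14, in a comparison where 0.669% of all genes were called, 0.146% as higher and 0.523% as lower. Tmem92 was at 1.60 FPKM against 21.1 (-3.14 ± 0.23, limma, adjusted p = 0.000187) and Gm12794 at 1.06 against 18.0 (-3.14 ± 0.21, limma, adjusted p = 0.000113). Zfp352 was at 0.239 against 3.81 FPKM (-1.92 ± 0.17, limma, adjusted p = 0.000617) and Trim75 at 0.304 against 3.07 (-1.76 ± 0.16, limma, adjusted p = 0.000795). The target Dux changed by -1.06 ± 0.16 (limma, adjusted p = 0.015), and this did not pass once the siNT or the siRpl14 library of set 2 was left out (highest adjusted p = 0.176). Of the 23 tested genes of the accompanying 2C-like list 21 were lower as well, with a median of -3.03. The 2 genes of that list fitted above 0 were Ddit4l (0.27 ± 0.42) and Zfp750 (0.23 ± 0.35). The same 2 genes were the ones fitted above 0 with siDux alone (0.07 ± 0.42 and 0.07 ± 0.35). The 4 trophectoderm markers summed to 26.4 FPKM in siRpl14 and 50.9 in siRpl14+siDux, mostly from Krt8 (18.6 and 40.9 FPKM), with Elf5 listed at 0 in both. None of the 3 that were tested passed (limma, adjusted p = 0.319 for Krt8, 0.856 for Cdx2 and 0.884 for Gata3), and their part was not tested.

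The Trim43 genes did not pass in either siDux comparison. In set 2 Trim43a had 0.761 FPKM (siNT), 0.21 (siDux), 0.543 (siRpl14) and 0.27 (siRpl14+siDux), the lower values being those of the libraries with siDux (limma, adjusted p = 1 for siDux against siNT and 0.899 for siDux added to siRpl14). Trim43b was at 0.327, 0.0939, 0.115 and 0.121 FPKM in the same order. Trim43c was at 0.335, 0.388 and 0.254 FPKM and was listed at 0 with both siRNAs.

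Cells with siRpl14 and siDux together stood between the siDux and siNT libraries of set 2 for all 5 genes. Tmem92 was at 1.60 FPKM against 0.313 with siDux alone (0.98 ± 0.25, limma, adjusted p = 0.0325) and Gm12794 at 1.06 against 0.186 (0.79 ± 0.23, limma, adjusted p = 0.0461), 2 of 8 markers where 15.4% of all genes were called and 9.81% were higher. Each call was lost under at least 1 other setting (highest adjusted p = 0.0521 and 0.0689). As ratios of FPKM, the levels in siRpl14+siDux were 3.08-fold (Dux) to 7.97-fold (Trim75) those in siDux, and the levels in siRpl14 were 2.47-fold (Trim75) to 4.89-fold (Dux) those in siNT. Both ends of the first range rest on siDux values under the 10th percentile of values above 0 in that library (0.0633 FPKM). The comparison with siDux was added after the values had been seen, and the difference between these ratios was not tested.

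**Figure D3:**
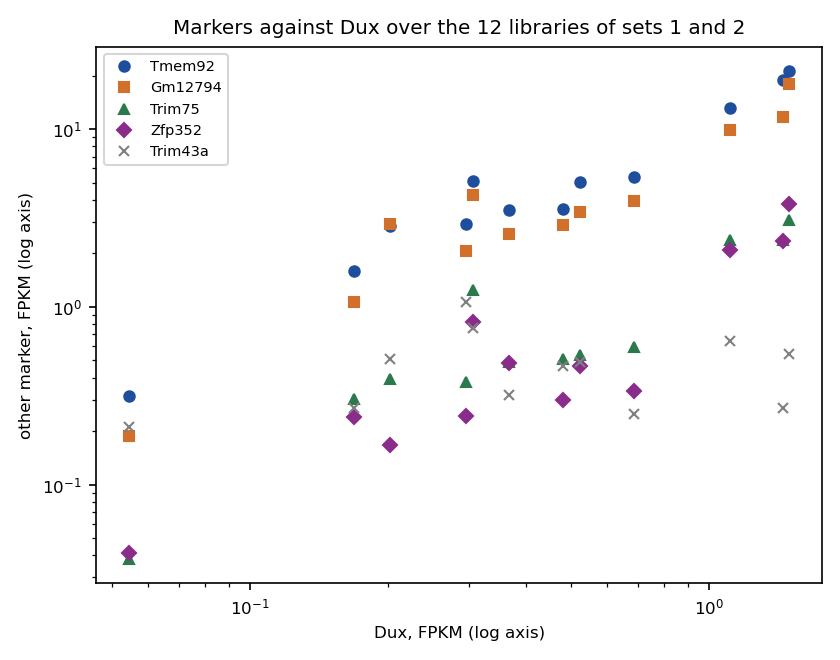
FPKM of Tmem92, Gm12794, Trim75, Zfp352 and Trim43a (vertical log axis) against FPKM of Dux (horizontal log axis), 1 point per library of sets 1 and 2. The points of the first 4 genes rise from the siDux library at 0.0546 FPKM of Dux to the siRpl14 libraries at 1.11 to 1.495. Trim43a was also lowest in the siDux library, at 0.21 FPKM, but did not follow Dux over the 12 libraries (r = 0.0144 for log2(FPKM + 1)).

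Over the 12 libraries of sets 1 and 2, log2(FPKM + 1) of the 5 genes correlated with each other at r = 0.912 to 0.991 (10 pairs). The 5 genes were set apart after their changes were seen, and the points share siRNA groups and a table, so these are descriptions. The 3 pairs of Trim43 genes gave r = 0.0157 to 0.268, and the 15 pairs between the 5 genes and the Trim43 genes gave r = -0.262 to 0.219. Tmem92 and Gm12794 were the most alike pair.

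Among 12699 genes with a mean of at least 0.5 FPKM in that table, the 5 most like Dux were Gm13078 (r = 0.97), Spz1 (0.966), Usp17lc (0.962), Usp17ld (0.962) and Tmem92 (0.959). The 5 most like Zfp352 were Tdpoz4 (r = 0.992), BC080695 (0.986), Sp110 (0.983), Trim75 (0.98) and Usp17lc (0.98). Likeness is Pearson's r over the 12 libraries, with no test.

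Set 3 repeats the siRpl14 and siDux knockdowns with 2 libraries each and is less finely resolved, the 10th percentile of values above 0 being 1.08 to 1.60 FPKM per library. None of the 8 markers passed in any of its comparisons (limma). All genes were called at 0.54% for siRpl14 against siNT, 0.0065% for siDux against siNT, 0.013% for siDux added to siRpl14 and 0.403% for siRpl14+siDux against siDux. At an unadjusted p under 0.05 (limma) there were 5, 1, 4 and 2 of the 8 markers in these comparisons. Of the 15379 genes tested, 1654, 683, 917 and 1716 were under that value. The markers counted did not share a direction. With siRpl14, Tmem92, Gm12794 and Trim75 were higher and Trim43b and Trim43c lower. In the last 2 comparisons Trim43c moved against the other markers counted. Of 21 tested genes of the accompanying list none passed either, with median log2 fold changes of 1.42 for siRpl14, -1.10 for siDux and -2.36 for siDux added to siRpl14.

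Trim75 was far higher in this table than in the other, and its values separated the 4 kinds of library that were fitted. It was at 33.5 and 42.7 FPKM in siNT, at 147 and 179 with siRpl14, at 1.46 and 4.38 with siDux and at 14.4 and 27.0 with siRpl14+siDux. No 2 of these groups overlap. The order was the same as in set 2, siRpl14 first, then siNT, siRpl14+siDux and siDux. The fitted changes were 2.07 ± 0.44 for siRpl14, -3.42 ± 0.44 for siDux and -2.98 ± 0.44 for siDux added to siRpl14 (limma, adjusted p = 0.125, 0.164 and 0.131). Against siDux alone, siRpl14+siDux differed by 2.51 ± 0.44 (limma, adjusted p = 0.0745). The single siRpl11 library was at 21.8 FPKM and the single siRpl14+siRpl11 library at 47.4, both well under siRpl14, with siRpl11 inside the range of siRpl14+siDux.

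**Figure D4:**
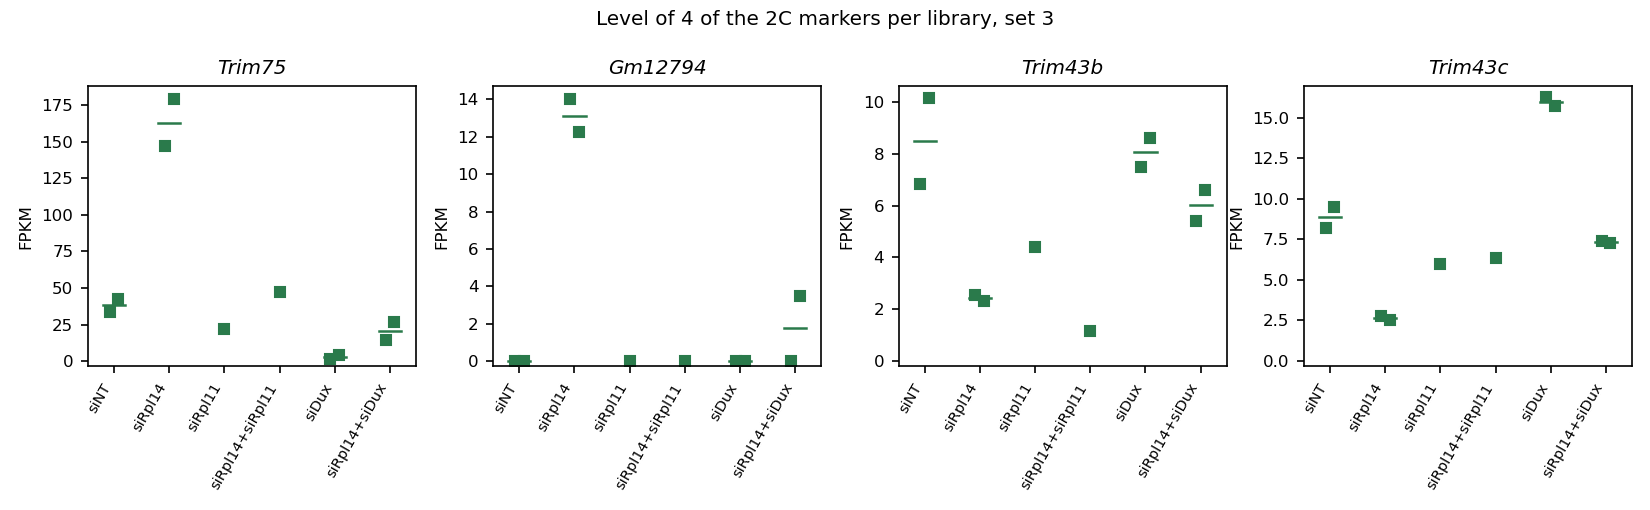
FPKM (vertical axes, linear) of Trim75, Gm12794, Trim43b and Trim43c in the 10 libraries of set 3 by siRNA, with a bar at the mean where there are 2 libraries. Trim75 and Gm12794 are highest with siRpl14, at 147 to 179 and 12.3 to 14.0 FPKM, where Trim43b and Trim43c are at 2.80 FPKM or less.

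Gm12794 was at 14.0 and 12.3 FPKM with siRpl14 in set 3 and at 3.50 in siRpl14+siDux replicate 2, and was listed at 0 in the other 7 libraries (3.82 ± 0.80 for siRpl14 against siNT, limma, adjusted p = 0.113). Tmem92 was at 3.14 and 2.78 FPKM with siRpl14, at 0.901 in siNT replicate 1 and at 1.44 in siRpl14+siRpl11, and was listed at 0 in the other 6. Dux and Zfp352 were above 0 only in siRpl14 replicate 2, at 3.03 and 1.82 FPKM. With Dux at 0 in siNT, its depletion by siDux cannot be checked in set 3.

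Trim43b and Trim43c had higher values in set 3 than in the other table, and the siRpl14 libraries were the lowest of the 4 fitted groups. The siRpl14+siRpl11 library, which was not fitted, was at 1.17 FPKM for Trim43b and 6.34 for Trim43c, and the siRpl11 library at 4.39 and 5.96. Trim43b was at 6.82 and 10.2 FPKM in siNT, 2.57 and 2.32 with siRpl14, 7.48 and 8.62 with siDux and 5.42 and 6.61 with both. Trim43c was at 8.21 and 9.49 FPKM in siNT, 2.80 and 2.53 with siRpl14, 16.3 and 15.7 with siDux and 7.37 and 7.25 with both. The siRpl14 values did not overlap with siNT for either gene, and the fitted changes were -1.44 ± 0.45 and -1.42 ± 0.39 (limma, adjusted p = 0.292 and 0.228). In set 1 these genes differed by -0.05 ± 0.09 and -0.12 ± 0.13 in the same comparison. They were at 0.415 FPKM or less there, where the added 1 FPKM shrinks changes, so the 2 fits are not alike in scale. As ratios of mean FPKM, siRpl14 over siNT was 0.608 and 0.616 in set 1 and 0.288 and 0.301 in set 3. In the single libraries of set 2 it was 0.352 and 0.758. Trim43a was at 0.872 and 4.99 FPKM in siNT, listed at 0 and at 1.33 with siRpl14, listed at 0 and at 1.64 with siDux, and listed at 0 in both siRpl14+siDux libraries.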

How the data were processed

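The 2 tables were deposited by the authors as FPKM per gene, 1 column per library. STAR, Cuffnorm and mm9 are named in the submitters' processing notes; for versions, annotation, strand setting and library scaling, the sources used here give nothing. The libraries were made with a stranded mRNA kit, per the labels' protocols. Members and lists were chosen with earlier results of these data known.

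Each fit used limma 3.58.1 (statmod 1.5.0) in R 4.3.3, with trended and robust moderation, on log2(FPKM + 1) for genes with a mean of at least 0.1 FPKM over its libraries, whatever the group (15013 genes in set 1, 15101 in sets 1 and 2 together, 15379 in set 3). P-values were adjusted over all genes tested by the Benjamini-Hochberg method at 0.05. The filter differs from one of 1 FPKM in 2 libraries, which Dux, Zfp352 and Trim75 meet in set 1 only through the siRpl14 libraries, and which was run as another setting. The comparisons of siRpl14+siDux with siDux were added after values had been seen. In set 3 the conditions with 1 library (siRpl11, siRpl14+siRpl11) were left out of the fit. The fit of set 1 was tried on simulated data for siRpl14 against siNT only, and the other fits and comparisons were not. Named genes are the members, the siRNA targets, the 5 genes most like Dux and Zfp352, list extremes and listed regulators that passed. Errors are SE unless stated. FPKM without counts give no depth, so no counting interval is given.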

Additional observations from a re-analysis of the deposited data

Results flagged for a closer look

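The change with siRpl14 differed between cells without and with siRpl11, by a test of the difference itself, for 4 markers in set 1. The difference was -1.146 for Zfp352, -1.45 for Tmem92, -1.215 for Gm12794 and -1.11 for Trim75 on the log2(FPKM + 1) scale (limma, adjusted p = 0.028, 0.0332, 0.0381 and 0.0194). In each of these genes both siRpl14 libraries were above both siNT libraries, and the mean FPKM of siRpl14+siRpl11 was 1.28-fold to 1.62-fold that of siRpl11. The siRpl14, siRpl11 and siNT libraries are shared with the other comparisons of set 1. Of all genes 3.99% were called in this test. Each of the 4 calls was lost when single libraries were left out, as given above.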

How the results depend on the processing

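The 5 rises with siRpl14 in set 1 passed under all 17 alternatives. Counts of markers that passed moved as follows. The interaction count of 4 became 2 with a pseudocount of 0.1 FPKM and 2 with no filter. The siRpl14+siRpl11 count against siNT of 1 became 0 with no filter and 3 under quantile normalization. The count for siRpl14+siDux against siDux of 2 became 1 with no filter and 1 under quantile normalization. Leaving out 1 library gave ranges of 5 to 5 for siRpl14 and 0 to 0 for siRpl11 against siNT, 3 to 4 for siRpl11 added to siRpl14, 0 to 1 for both against siNT, 0 to 4 for the interaction, 0 to 3 for siDux against siNT, 4 to 5 for siDux added to siRpl14, 1 to 2 for siRpl14+siDux against siDux and 0 to 0 in set 3.

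The labels do not say that replicate numbers pair samples. Same-number deviations correlated at 0.166 to 0.463 among siNT, siRpl11 and siRpl14 of set 1, at -0.452 to -0.21 between these and siRpl14+siRpl11, and at 0.00619 to 0.0356 in set 3. With a replicate block, 1 marker (Trim75) passed for siRpl14 against siNT in set 3 and 1 (Trim75) for siRpl14+siDux against siDux there, and 3 instead of 4 passed the interaction. A replicate block with crossed siRpl14+siRpl11 numbers, chosen after seeing the data, gave 1 for siRpl11, 2 for both against siNT, 5 for siRpl11 added to siRpl14 and 5 for the interaction, with 6767, 2440 and 3734 genes called for siRpl14, siRpl11 added and the interaction. Counts over all genes that moved by more than 1.5 times were those of the interaction (599, to 366 with pseudocount 0.1, 313 with no filter and 157 with the block), siRpl11 added to siRpl14 (984, to 476 under quantile normalization and 605 with the block), siRpl14 in set 1 (4243, to 6615 with sets 1 and 2 fitted together) and siDux added to siRpl14 (101, to 63 with the filter of 1 FPKM in 2 libraries). In set 3 they were siDux (1, to 3 with pseudocount 0.1), siDux added to siRpl14 (2, to 16 with pseudocount 0.1 and 1 with the block) and siRpl14 (83, to 54 with no filter). Without 1 library these counts ran from 1102 to 4454 for siRpl14, 1534 to 6120 for siRpl11 (main 5853; lowest without siRpl11 replicate 2), 140 to 928 for siRpl11 added and 1079 to 5706 for both against siNT (main 5439; both lowest without siRpl14+siRpl11 replicate 1), and 1 to 1445 for the interaction (lowest, as for siRpl14, without siNT replicate 1). They ran from 9 to 24 for siDux (main 25; lowest without siNT of set 2), 39 to 105 for siDux added (lowest without siRpl14 of set 2) and 1559 to 2941 for siRpl14+siDux against siDux (main 2320). In set 3 they ran from 4 to 31 for siRpl14, 0 to 0 for siDux, 1 to 3 for siDux added and 3 to 8 for siRpl14+siDux against siDux (main 62). The shares of all genes called, printed beside the markers, move with these counts. The cause of these moves was not tested.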

Other observations

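Known or proposed regulators of Dux and of the 2C-like state were listed separately. Of 18 regulators, 6 were higher and 1 lower with siRpl14 in set 1, where 28.3% of all genes were called. Dppa2 rose by 1.07 ± 0.26 (limma, adjusted p = 0.0202), Nelfa by 0.66 ± 0.11 (0.00611), Lin28a by 0.97 ± 0.22 (0.0154), Rif1 by 0.61 ± 0.17 (0.0334) and Atf7ip by 0.61 ± 0.14 (0.0176). The sixth was Zscan4d (1.51 ± 0.12, adjusted p = 0.000661), which also belongs to the 2C-like list, and Setdb1, a histone methyltransferase gene, fell by 0.38 (0.0475). With siRpl11 alone, where 12.9% of all genes were called higher and 26.1% lower and none of the 8 markers passed, 6 of the 18 were higher and 3 lower. Dppa2 (1.34 ± 0.26), Lin28a (1.85 ± 0.22), Rif1 (0.73 ± 0.17), Atf7ip (0.63 ± 0.14) and Nelfa (0.53 ± 0.11) were higher there too (limma, highest adjusted p = 0.0134), and Zscan4d was lower (-0.60 ± 0.12, adjusted p = 0.00757). Setdb1 was lower with siRpl11 as it was with siRpl14 (-0.45 ± 0.12, limma, adjusted p = 0.0215). With siDux added to siRpl14, where 0.669% of all genes were called, Zscan4d was the 1 of the 18 that passed (-4.04 ± 0.17, limma, adjusted p = 1.02e-05).

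Trim75, Trim43b and Trim43c took different places among all genes in the 2 tables. Percentiles among the 24819 genes ran from 34.95 to 62.1 for Trim75 in the libraries of sets 1 and 2 and from 57.4 to 98.5 in set 3. They ran from 33.9 to 47.4 against 59.3 to 80.9 for Trim43b and from 15.6 to 47.6 against 63.9 to 86.0 for Trim43c.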
